A study of Mus musculus with 6 samples.

Results

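Dact2, the gene with the clearest fall after Psmb11 itself in Psmb11-deficient cortical thymic epithelial cells (cTECs), was described together with 9 other genes of the Wnt pathway: Dact1, Wnt4, Wnt5a, Wnt5b, Sfrp1, Dkk3, Axin2, Kremen1 and Lgr4. These 10 genes were picked by symbol from the 50600 gene identifiers in the files, with their fold changes in these libraries already known. Their values are therefore given as a description, without a test.

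The libraries are polyadenylated RNA of primary cTECs, which line the thymic cortex and support developing T cells, from mice 8 to 10 weeks old. There were 3 KO libraries (Psmb11-/-, replicates A, B and C) and 3 WT libraries (Psmb11+/+, replicates A, B and C), and both genotypes carry the strain label B6.B6CB-Psmb11tm1Smta. The gene Psmb11 codes for β5t, a catalytic subunit of the proteasome of cTECs, and the labels name no Cre driver, only the Psmb11-/- genotype. The labels give neither the sex of the mice, nor the surface markers used to isolate the cells, nor whether each replicate is a separate mouse or pool. The p-values given for other genes therefore measure only the spread between these libraries, which may be technical.

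Wnt proteins are secreted ligands that bind Frizzled receptors and, for the canonical branch, the co-receptors Lrp5 and Lrp6. Dishevelled passes the signal on, the destruction complex built on Axin stops degrading β-catenin, and β-catenin then joins TCF/LEF factors at target genes. Other branches, including planar cell polarity, also run through Frizzled and Dishevelled but not through β-catenin. Dact (Dapper) proteins bind Dishevelled, and Dact2 is known in zebrafish to promote the breakdown of Nodal receptors. In the mouse thymus, Wnt4 and Wnt5b from epithelium and thymocytes have been linked to expression of Foxn1, the transcription factor on which thymic epithelium depends, and loss of Kremen1 disturbs the layout of the thymic cortex.

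Promoter sequences are shown for 4 of the genes that differed in level, to set the promoter of Dact2 beside those of the most abundant ligand, of a ligand that was higher in KO and of the canonical feedback target. Each is the RefSeq window of 300 bases on GRCm38.p6, with 250 bases before and 50 after the RefSeq start site, written 5′ to 3′ on the gene's own strand. The gene positions given further below are from GENCODE, and the start sites of Axin2 and Wnt5b are the same there. The whole Dact2 window lies inside the GENCODE gene, whose 5′ end is at 14204304. Bases before that end were not searched. The RefSeq start of Wnt4 also lies inside its GENCODE gene, which begins at 137277489. Capitals mark GACGC, the core letters bound by Foxn1, read on either strand (GCGTC on the strand shown).

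Dact2 chr17:14203782-14204081 minus strand: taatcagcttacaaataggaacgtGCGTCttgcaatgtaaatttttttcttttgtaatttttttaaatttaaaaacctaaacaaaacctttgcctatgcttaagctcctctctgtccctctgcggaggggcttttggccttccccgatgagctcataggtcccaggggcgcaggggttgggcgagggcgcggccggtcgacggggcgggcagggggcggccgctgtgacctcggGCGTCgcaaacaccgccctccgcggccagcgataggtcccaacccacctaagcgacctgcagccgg

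Wnt4 chr4:137277385-137277684 plus strand: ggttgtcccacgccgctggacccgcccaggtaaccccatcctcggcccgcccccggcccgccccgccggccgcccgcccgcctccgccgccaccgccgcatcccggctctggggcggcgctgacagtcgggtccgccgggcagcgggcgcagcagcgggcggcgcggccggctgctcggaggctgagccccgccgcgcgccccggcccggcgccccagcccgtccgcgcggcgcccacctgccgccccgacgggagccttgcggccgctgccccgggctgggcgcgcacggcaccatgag

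Wnt5b chr6:119544298-119544597 minus strand: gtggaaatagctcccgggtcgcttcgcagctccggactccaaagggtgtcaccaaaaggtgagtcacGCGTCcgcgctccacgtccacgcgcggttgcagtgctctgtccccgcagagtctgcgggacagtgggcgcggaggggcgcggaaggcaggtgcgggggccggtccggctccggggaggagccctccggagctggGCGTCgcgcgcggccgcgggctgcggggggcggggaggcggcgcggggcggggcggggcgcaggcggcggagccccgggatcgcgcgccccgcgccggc

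Axin2 chr11:108920099-108920398 plus strand: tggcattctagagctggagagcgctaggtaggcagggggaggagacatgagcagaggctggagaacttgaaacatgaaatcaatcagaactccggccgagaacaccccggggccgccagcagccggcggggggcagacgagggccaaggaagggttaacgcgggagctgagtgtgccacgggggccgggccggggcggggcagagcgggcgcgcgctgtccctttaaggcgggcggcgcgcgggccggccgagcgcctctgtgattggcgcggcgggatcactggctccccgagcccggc

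The Dact2 window held 2 matches to GACGC, which begin at bases 25 and 235 of the window, and the outermost Wnt5b window held 2, at bases 68 and 202. Of all 32851 windows in the table, 27.2% held at least 1 match and 8.15% held 2 or more. The Lgr4 window held 1 match, and the windows of Wnt4, Axin2 and Dact1 and the inner windows of Wnt5b held none. The letters CTTTGA or CTTTGT, read on both strands as the core of the TCF/LEF motif, occur in 31.2% of all windows. They were in none of the 4 windows shown, nor in those of Dact1 and Lgr4, and an inner Wnt5b start had 1 match. The 4 windows differed in base composition, with a G and C content of 56.7% for Dact2, 84.3% for Wnt4, 78.0% for Wnt5b and 70.0% for Axin2, against a median of 52.7% over all windows. These matches are letters in a window, and binding was not measured. Windows were found for 6 of the 10 genes, and Wnt5a, Sfrp1, Dkk3 and Kremen1 are named only.

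The targeted gene followed the labels. Psmb11 had 67, 36 and 41 counts in KO A, B and C, against 8293, 9297 and 10027 counts in WT A, B and C. Gene counts per library were 34265035 to 36713388 in KO and 34660349 to 39224292 in WT. The 12 listed cTEC markers had counts in every library of both genotypes. Psmb11 aside, their mean levels ran from 26.5 CPM (gene counts scaled to library size) for Dll4 to 1605 CPM for Krt18 in KO. In WT these 2 genes had 45.9 and 2098 CPM. At an adjusted p below 0.05 (edgeR), 11 of 12 (Psmb11 among them) were lower in KO and 1 (Epcam) was higher. Among all genes tested, 12.5% were higher and 11.1% lower, and these shares stand beside each marker count below. Their summed level was 5980 to 6716 CPM in KO and 9622 to 9777 CPM in WT. That sum includes the targeted gene Psmb11 itself, with means of 1.33 CPM in KO and 252 CPM in WT. Of 10 markers of medullary epithelium, 7 were higher in KO, and the sum was 5353 to 5742 CPM in KO cells and 3977 to 4547 CPM in WT cells. The highest of the 10 was Krt5, with means of 3224 CPM in KO and 2481 CPM in WT, above each listed cTEC marker. Of 11 fibroblast and mural markers, 10 were tested and 8 were higher, with sums of 1261 to 1357 CPM in KO cells and 876 to 985 CPM in WT cells, and Mfap5 was at 0 in at least 1 library. Of 8 tuft cell markers, 5 were higher (160 to 205 CPM in KO, 101 to 111 CPM in WT). Of 10 markers of dendritic cells and macrophages, 8 were tested and 7 were higher (64.5 to 72.7 CPM in KO, 33.7 to 37.2 CPM in WT), with Xcr1 and Siglech at 0 in at least 1 library. The sums of thymocyte markers (54.1 to 100.4 CPM in KO, 50.2 to 60.0 CPM in WT) and of endothelial markers (20.4 to 56.0 CPM in KO, 15.2 to 39.7 CPM in WT, Emcn at 0 in at least 1 library) overlapped, and 1 of 11 tested thymocyte markers and 0 of 7 tested endothelial markers were called (edgeR; 1 endothelial marker had an unadjusted p below 0.05, and DESeq2 and limma called 0). KO replicate A had the highest thymocyte, endothelial, tuft and medullary sums. Without it, 6 of the 10 genes described below were called, the log2 fold change of Dact2 was -0.86, and Wnt5b was the gene lost. In bulk libraries, fewer cells of a type and less RNA per cell cannot be told apart. The part of these markers in the Wnt pathway results was not tested.

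**Figure D1:**
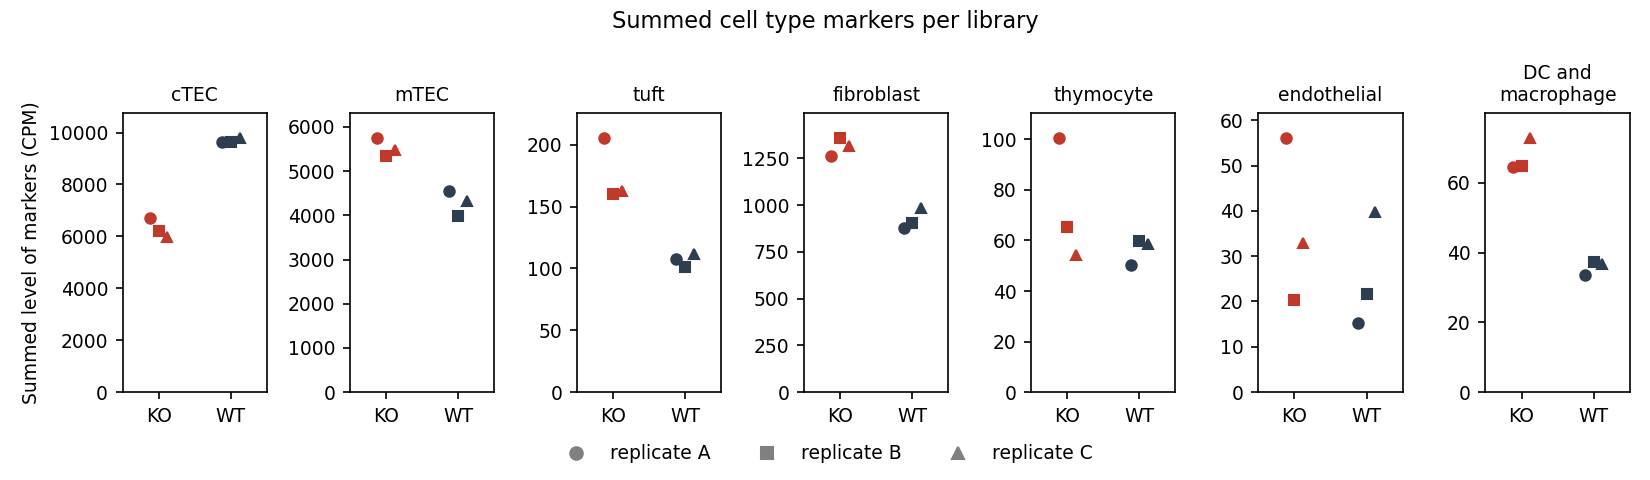
Summed level in CPM of each marker list (1 panel per cell type, each with its own linear axis from 0), with 1 point per library and KO left of WT. The cTEC sum was 5980 to 6716 CPM in KO cells and 9622 to 9777 CPM in WT cells, and the thymocyte and endothelial sums overlapped between genotypes.

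All 10 genes passed the filter on low counts. In the fit across all 16938 genes tested, 7 of the 10 had an adjusted p below 0.05, beside 23.6% of all genes tested. Higher in KO were 3 of the 10 (Wnt5a, Wnt5b and Dkk3), beside 12.5% of all genes, and lower in KO were 4 (Dact2, Wnt4, Sfrp1 and Axin2), beside 11.1%. For 8 of the 10 the KO and WT ranges in CPM were apart, beside 39.3% of all genes tested, while those of Dact1 and Lgr4 overlapped. The median log2 fold change, KO over WT, was -0.03 over the 10 genes and -0.00 over all genes tested, and the median absolute value was 0.28 over the 10 and 0.13 over all. Since the 10 were chosen with this contrast in view, nothing is read from these counts.

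**Figure D2:**
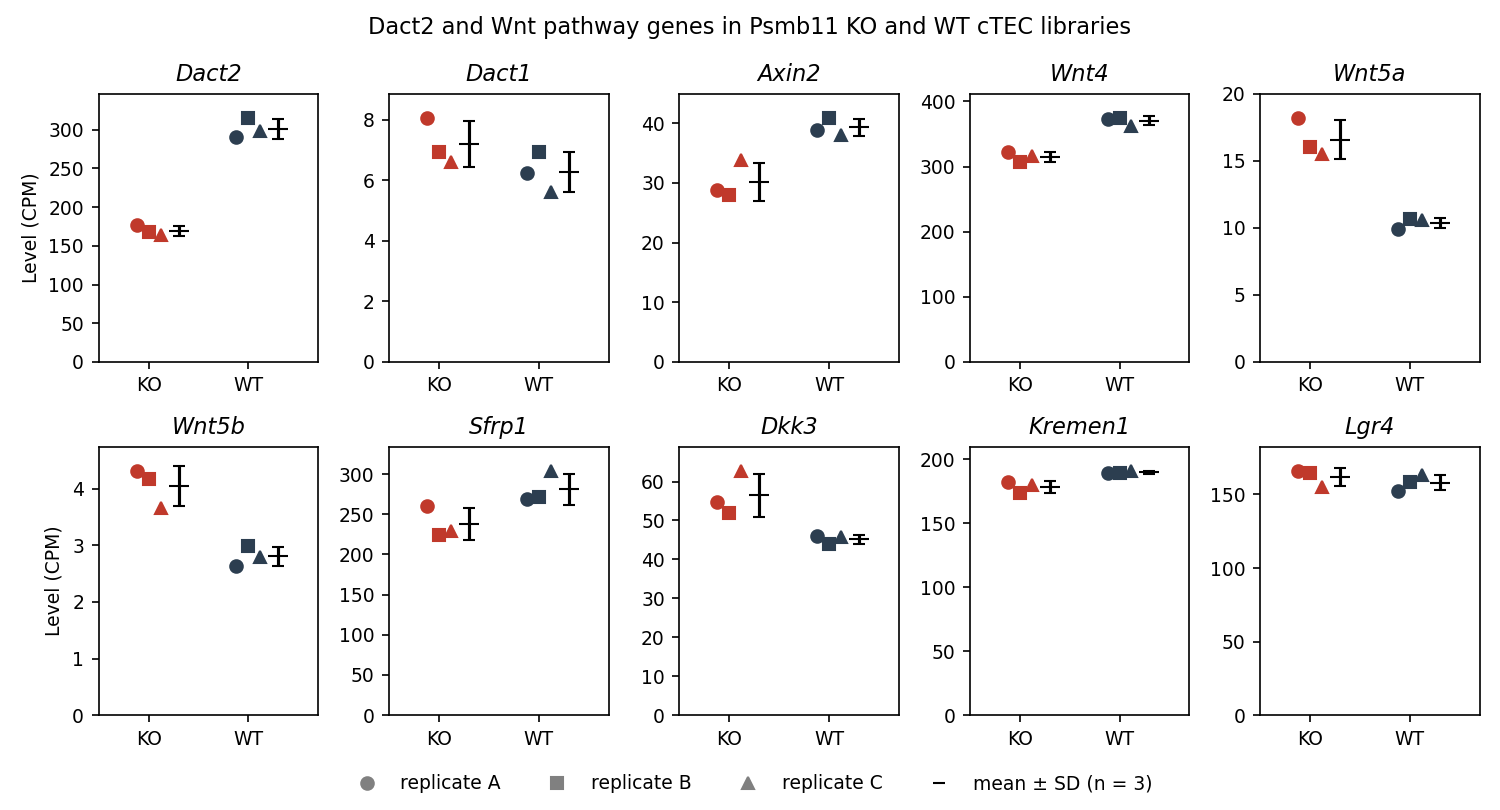
Level in CPM of each of the 10 genes (linear axes from 0, 1 scale per panel) in every library, KO left of WT, with markers for replicates A, B and C and the mean ± SD (n = 3) beside them. Dact2 lies at 164 to 177 CPM in KO cells and 290 to 315 CPM in WT cells, whereas Lgr4 overlaps between genotypes.

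Dact2 (ENSMUSG00000048826.6, chromosome 17, 14195052 to 14204304, minus strand, GRCm38) had 6551, 6184 and 5593 counts in KO A, B and C, against 9999, 11320 and 11652 counts in WT A, B and C. That is 177, 168 and 164 CPM in the KO libraries, against 290, 315 and 298 CPM in the WT libraries. Every KO library was below every WT library, and the highest KO value lay well under the lowest WT value. The mean was 169 ± 6.58 CPM in KO cells and 301 ± 12.8 CPM in WT cells (SD, n = 3 each), a log2 fold change of -0.83 (SE 0.04), or a level 1.78-fold lower in KO. Dact2 was chosen for its place by p-value after Psmb11, so that place is no result. By size of fold it was at place 23 among the 1790 genes called lower whose WT mean reached 5 CPM. Reads on the other strand are few at these genes (0.60% to 3.87% of the counts of both strands), and Dact2 has 1 transcript in the RSEM table, so its RSEM length is the same in all libraries. The summed cTEC markers were lower in the same libraries as Dact2, as given above, and their part in its values was not tested.

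Its relative Dact1 (ENSMUSG00000044548.11, chromosome 12, 71309884 to 71320107, plus strand), which binds Dishevelled as well, was a low gene with 8.06, 6.95 and 6.61 CPM in KO, against 6.24, 6.93 and 5.60 CPM in WT. The genotypes overlapped, and the log2 fold change was 0.20 (SE 0.12). It was 0.12 without KO replicate A, 0.13 without WT replicate C and 0.36 with unstranded counts, and 4930474H06Rik overlaps Dact1 on the other strand with 33 counts over the 6 libraries. Per length, Dact2 stood 26.5, 31.8 and 30.9 times above Dact1 in TPM (RSEM's abundance, scaled for transcript length and library size) in the KO libraries, against 59.0, 54.7 and 64.9 times in the WT libraries. Dact2 made up 96.1 ± 0.162% of the summed TPM of Dact1, Dact2 and Dact3 in KO and 98.1 ± 0.0606% in WT. The summed TPM of the 3 genes was 118 ± 4.66 in KO and 200.2 ± 10.2 in WT, which is nearly all Dact2 and so restates its values.

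Among the ligands, Wnt4 (ENSMUSG00000036856.4, chromosome 4, 137277489 to 137299726, plus strand) was the most abundant. It had 323, 307 and 316 CPM in KO, against 374, 375 and 363 CPM in WT. All KO values lay below all WT values, with means of 315 ± 7.87 CPM in KO cells and 371 ± 6.47 CPM in WT cells and a log2 fold change of -0.23 (SE 0.03), or 1.18-fold lower in KO. The libraries of a genotype lay close together, and the gap between the highest KO and the lowest WT value exceeded the SD of either genotype.

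Wnt5a (ENSMUSG00000021994.14, chromosome 14, 28504750 to 28527448, plus strand), a ligand best known for β-catenin-independent signalling, differed in the other direction. It had 18.2, 16.01 and 15.5 CPM in KO, against 9.90, 10.6 and 10.5 CPM in WT. The genotypes did not overlap, the means were 16.6 ± 1.44 CPM in KO cells and 10.4 ± 0.402 CPM in WT cells, and the log2 fold change was 0.68 (SE 0.09), or 1.60-fold higher in KO. The gene lies on the same chromosome as Psmb11 (54621433 to 54629556), 26.1 Mb away. Wnt5a is not alone in this among the genes reported here. Tnfrsf19 (60963875 to 61046490) and Fzd3 (65192449 to 65262463), both named below as lower in KO, lie on that chromosome nearer to Psmb11. Its RSEM length, an average over 6 listed transcripts, was 4815 to 5231 bases in KO and 4602 to 4855 bases in WT, which overlapped.

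Wnt5b (ENSMUSG00000030170.14, chromosome 6, 119432531 to 119544347, minus strand), the close relative of Wnt5a, was the lowest of the 10 genes. It had 160, 154 and 125 counts in KO, against 91, 107 and 109 counts in WT. These are 4.31, 4.18 and 3.66 CPM in KO, against 2.64, 2.98 and 2.79 CPM in WT, without overlap. The log2 fold change was 0.53 (SE 0.15), or 1.44-fold higher in KO. Its adjusted p passed 0.05 in the full fit but not without KO replicate A (log2 fold change 0.48), WT replicate A (0.49) or WT replicate C (0.52). It was also not called with limma on log2(TPM + 0.1) (0.53), and it was not fitted with a mean of at least 5 CPM. Fbxl14 overlaps it on the other strand, with 8007 counts over the 6 libraries. Fibroblast and mural markers were also higher in KO, as given above, and their part in the Wnt5a and Wnt5b values was not tested.

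Over the 19 Wnt ligand genes, Wnt4 held 59.9 ± 1.56% of the summed TPM in KO and 64.2 ± 1.52% in WT. Wnt7b came next by mean in KO with 12.2%, against 10.6% in WT, and Wnt6 had 11.1% in KO and 11.8% in WT. The ranges of Wnt7b and Wnt6 overlapped in both genotypes, in KO at 11.8% to 12.6% and 10.1% to 12.6%. Wnt5a held 2.58% in KO and 1.57% in WT, and Wnt5b held 1.49% in KO and 0.951% in WT, both small parts of the ligand RNA. The summed TPM was 228 ± 11.2 in KO and 243 ± 1.60 in WT. Wnt4 exceeded Wnt5a 21.6, 24.3 and 23.9 times per length in the KO libraries, against 42.3, 40.9 and 39.7 times in the WT libraries. The ligand RNA was therefore led by Wnt4 in both genotypes, with a smaller lead in KO.

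**Figure D3:**
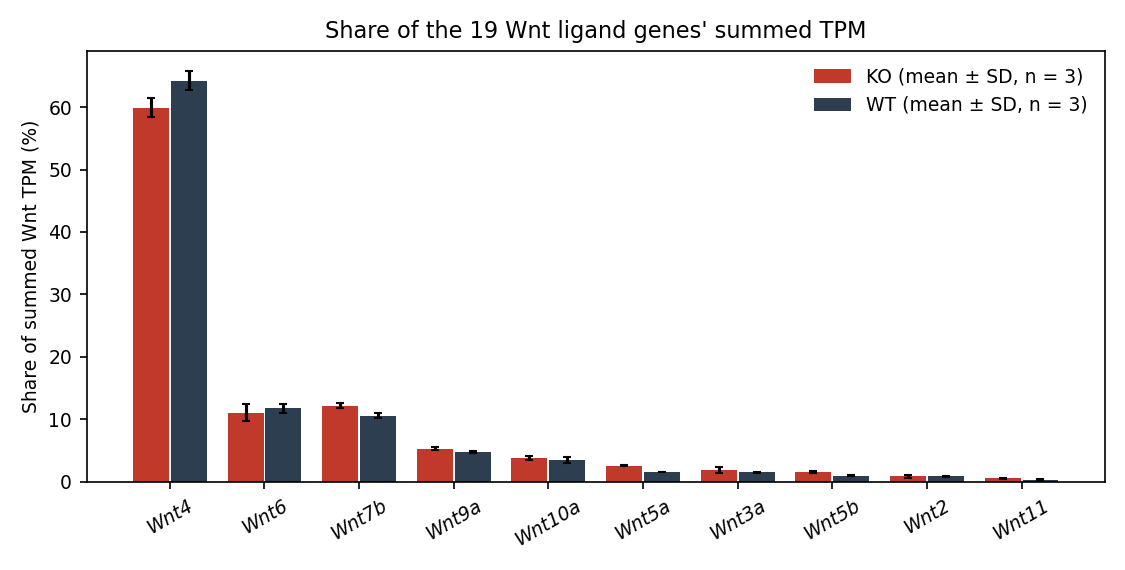
Share in percent of the summed TPM of the 19 Wnt ligand genes (linear axis from 0) for the 10 ligands with the highest WT share, KO bar left of WT bar, mean ± SD over n = 3 libraries. Wnt4 held 59.9% in KO and 64.2% in WT, and Wnt5a held 2.58% in KO and 1.57% in WT.

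Of the secreted antagonists, Sfrp1 (ENSMUSG00000031548.7, chromosome 8, 23411502 to 23449632, plus strand), which binds Wnt proteins outside the cell, had 260, 224 and 229 CPM in KO, against 269, 272 and 304 CPM in WT. The values did not overlap, but KO replicate A lay close to WT replicate A. The means were 238 ± 19.5 CPM in KO cells and 281 ± 19.4 CPM in WT cells, with a log2 fold change of -0.24 (SE 0.07), or 1.18-fold lower in KO. Its adjusted p no longer passed 0.05 with upper quartile normalization (log2 fold change -0.23), with either limma fit on TPM (-0.21 in both) or with the replicate block (-0.24). The same held without KO replicate B (log2 fold change -0.20), KO replicate C (-0.22), WT replicate B (-0.27) or WT replicate C (-0.19). Sfrp1 held 97.3% of the summed TPM of Sfrp1, Sfrp2, Sfrp4, Sfrp5 and Frzb in KO and 97.8% in WT.

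Dkk3 (ENSMUSG00000030772.6, chromosome 7, 112116017 to 112159057, minus strand), the divergent member of the Dickkopf family, had 54.7, 52.0 and 62.7 CPM in KO, against 46.0, 43.9 and 45.8 CPM in WT. All KO values were above all WT values, and KO replicate C was the highest. The means were 56.5 ± 5.54 CPM in KO cells and 45.2 ± 1.16 CPM in WT cells, a log2 fold change of 0.32 (SE 0.06), or 1.25-fold higher in KO. Dkk3 held 98.6% of Dickkopf TPM in KO and 99.3% in WT.

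Kremen1 (ENSMUSG00000020393.16, chromosome 11, 5191552 to 5261558, minus strand), a receptor through which Dickkopf proteins remove Lrp6, had 182, 173 and 180 CPM in KO, against 189, 189 and 191 CPM in WT. The values did not overlap, yet the gap was small, with means of 178 ± 4.66 CPM in KO cells and 190 ± 0.903 CPM in WT cells and a log2 fold change of -0.09 (SE 0.03) that missed the threshold. Lgr4 (ENSMUSG00000050199.13, chromosome 2, 109917647 to 110014257, plus strand), a receptor for R-spondins that strengthens Wnt signalling, had 166, 165 and 155 CPM in KO, against 153, 158 and 163 CPM in WT. These overlapped, and the log2 fold change was 0.04 (SE 0.04). Kremen1 held 95.6% of Kremen TPM in KO and 95.3% in WT, and Lgr4 held 99.0% of the TPM of Lgr4, Lgr5 and Lgr6 in either genotype.

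Axin2 (ENSMUSG00000000142.15, chromosome 11, 108920349 to 108950783, plus strand), a scaffold of the destruction complex and a widely used readout of canonical signalling, had 28.8, 27.9 and 33.8 CPM in KO, against 39.0, 40.9 and 38.1 CPM in WT. All KO values were below all WT values, with KO replicate C the highest of the KO libraries. The means were 30.2 ± 3.17 CPM in KO cells and 39.3 ± 1.46 CPM in WT cells, and the log2 fold change was -0.38 (SE 0.07), or 1.30-fold lower in KO. Axin2 was not called with either limma fit on TPM (log2 fold change -0.28 and -0.30). Axin2 held 25.9 ± 3.11% of the TPM of Axin1 and Axin2 in KO and 30.1 ± 1.92% in WT, so Axin1, which is not a feedback target, was the more abundant of the pair. Its RSEM length over 7 listed transcripts was 2663 bases in KO replicate B, the lowest of all libraries, against 3022 and 3074 bases in the other KO libraries and 2973 to 3160 bases in WT. The antisense gene Gm11670 overlaps it, with 178 counts over the 6 libraries.

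Per length, the order of mean TPM in KO was Wnt4 (136), Dact2 (113), Sfrp1 (96.1), Kremen1 (66.7), Lgr4 (57.3), Dkk3 (30.7), Axin2 (17.96), Wnt5a (5.88), Dact1 (3.84) and Wnt5b (3.40). In WT it was Dact2 (196), Wnt4 (156), Sfrp1 (111), Kremen1 (68.9), Lgr4 (54.9), Dkk3 (23.8), Axin2 (22.0), Wnt5a (3.81), Dact1 (3.32) and Wnt5b (2.31). The order differed only in the first places, where Wnt4 stood above Dact2 in KO and Dact2 above Wnt4 in WT. The ratio of Dact2 to Wnt4 TPM was 0.843, 0.848 and 0.800 in KO, against 1.203, 1.30 and 1.27 in WT. Neighbours whose ranges overlapped were Dact1 and Wnt5b in KO, and Dkk3 and Axin2 as well as Wnt5a and Dact1 in WT.

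**Figure D4:**
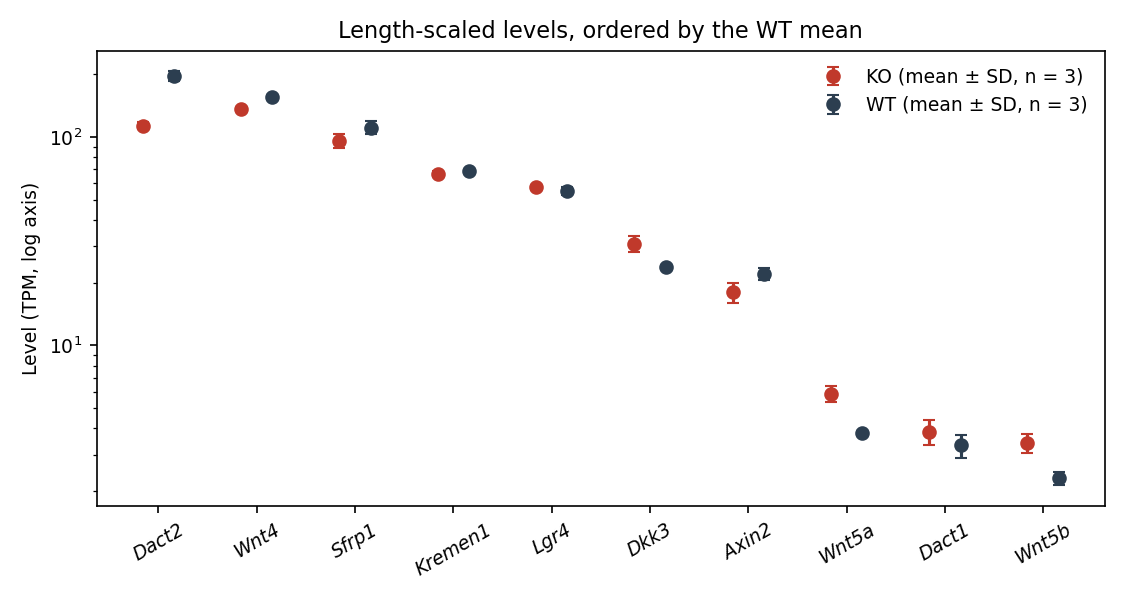
Mean TPM ± SD (n = 3 libraries) of the 10 genes on a log axis, ordered by the WT mean, KO point left of WT point. Dact2 averages 113 TPM in KO and 196 TPM in WT, and Wnt4 averages 136 TPM in KO and 156 TPM in WT.

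The rest of the pathway was taken from lists by role, with the 10 genes left out, and a gene can be on more than 1 list. Of 111 other Wnt genes, 88 were tested, 17 were higher and 9 lower in KO at an adjusted p below 0.05 (edgeR quasi-likelihood test, Benjamini-Hochberg over all genes tested), and 62 did not pass. The called share was 29.5%, beside 23.6% of all genes tested (12.5% higher, 11.1% lower). These shares over all genes stand beside the counts of each list below. The median log2 fold change of the 88 was 0.02. The count of lower genes depended on single libraries, with 5 without KO replicate B, 4 without WT replicate A and 4 without WT replicate B. Wnt1 and Sost had 0 counts in every library, and the 3 counts that a count of 0 allows correspond to 0.0765 to 0.0876 CPM per library, counting error only.

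Of 8 other ligands tested, 1 was higher and none lower, and the list median was 0.02. Wnt11, a ligand of the β-catenin-independent branch, rose with 53, 41 and 31 counts in KO, against 12, 9 and 20 counts in WT (1.15 ± 0.263 CPM in KO, 0.370 ± 0.132 CPM in WT, log2 fold change 1.62, adjusted p = 0.00286, edgeR). The call on Wnt11 was lost with limma on log2(TPM + 1) (log2 fold change 0.59, adjusted p = 0.114) and on log2(TPM + 0.1) (1.30, adjusted p = 0.123), and its adjusted p was 0.000106 to 0.123 over 16 alternatives. Of 3 genes of ligand secretion and release, 1 was lower. Wls, the carrier that brings Wnt proteins to the cell surface, was at 528 ± 16.6 CPM in KO cells and 572 ± 9.85 CPM in WT cells (log2 fold change -0.12, adjusted p = 0.0266, edgeR). Over 17 alternatives the adjusted p of Wls was 0.00862 to 0.120, and the call was lost in 5 of them. Among these were the fits without KO replicate B (0.0544), KO replicate C (0.0859), WT replicate A (0.0628) or WT replicate C (0.120).

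Of 15 other receptors tested, 2 rose and 3 fell, with a list median of -0.01. Lrp5, a canonical co-receptor, rose to 154 ± 10.5 CPM in KO, against 125 ± 6.07 CPM in WT (log2 fold change 0.29, adjusted p = 0.000897, edgeR). The Frizzled receptors differed among themselves. Fzd3 fell to 31.1 ± 1.62 CPM in KO, against 37.5 ± 1.42 CPM in WT (log2 fold change -0.27, adjusted p = 0.00182, edgeR), a call lost with limma on log2(TPM + 1) (adjusted p = 0.0884) and on log2(TPM + 0.1) (0.0844), within a range of 1.22e-05 to 0.0884 over 17 alternatives. Fzd1 was at 47.9 ± 4.59 CPM in KO cells and 39.2 ± 2.96 CPM in WT cells (log2 fold change 0.29, adjusted p = 0.0167, edgeR). The call on Fzd1 was lost in 4 of 17 alternatives, with a range of 7.29e-07 to 0.0769. Among these were the fits without KO replicate B (adjusted p = 0.0556) or KO replicate C (0.0677). The other lower receptors were Fzd2, whose CPM and TPM ranges overlapped between genotypes, and Fzd10, whose ranges did not. None of 5 tested genes of the R-spondin and Lgr group passed the edgeR test, 1 had an unadjusted p below 0.05, and DESeq2 and limma called 0. The most abundant were the ubiquitin ligases Rnf43 (124 ± 1.79 CPM in KO, 128 ± 6.89 CPM in WT) and Znrf3 (22.1 ± 1.06 CPM in KO, 21.3 ± 1.52 CPM in WT), which remove Frizzled from the membrane.

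Of 5 other genes tested in the list of antagonists and Kremen receptors, 2 were higher and none lower, while the list median was -0.02. Sostdc1, an inhibitor of both Wnt and BMP signalling, rose with 11.7, 8.79 and 8.51 CPM in KO, against 4.27, 4.12 and 4.79 CPM in WT (log2 fold change 1.14, adjusted p = 2.24e-05, edgeR). Every KO value was well above every WT value. Dkk2, an Lrp5 and Lrp6 binder, had few counts, with 31, 20 and 30 counts in KO, against 8, 6 and 18 counts in WT (log2 fold change 1.36, adjusted p = 0.0244, edgeR). The call on Dkk2 was lost in 8 of 16 alternatives, with a range of 0.0106 to 0.123. Among these were the fits without KO replicate A (adjusted p = 0.0645), KO replicate C (0.0809), WT replicate A (0.0929) or WT replicate B (0.123).

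Inside the cell, of 8 other genes around Dishevelled, 1 was higher and 2 were lower, and the list median was 0.01. Nkd2 was at 9.62 ± 1.24 CPM in KO cells and 7.28 ± 0.0854 CPM in WT cells (log2 fold change 0.40, adjusted p = 0.0143, edgeR), and its relative Nkd1, also a Dishevelled binder and a target gene, was at 27.8 ± 2.36 CPM in KO cells and 32.1 ± 1.01 CPM in WT cells (log2 fold change -0.21, adjusted p = 0.0231). Dvl2, 1 of the Dishevelled genes, was at 44.0 ± 0.659 CPM in KO cells and 48.5 ± 1.85 CPM in WT cells (log2 fold change -0.14, adjusted p = 0.0321, edgeR). At Dvl2, 55.5% of the counts of both strands lay on the other strand, and its TPM ranges overlapped between genotypes, as did those of Nkd1. Each of these calls depended on single libraries. The call was lost in 5 (Nkd2), 7 (Nkd1) and 9 (Dvl2) of 17 alternatives, of which only some are named here. Nkd2 lost it without KO replicate C (adjusted p = 0.0846), WT replicate B (0.0592) or WT replicate C (0.0510), and ranged from 0.00520 to 0.118 over 17 alternatives. Nkd1 lost it without KO replicate B (adjusted p = 0.104), WT replicate A (0.0555), WT replicate B (0.0513) or WT replicate C (0.108), and ranged from 0.00270 to 0.480. Dvl2 lost it without KO replicate A (adjusted p = 0.0561), KO replicate C (0.0759), WT replicate A (0.109) or WT replicate C (0.128), and ranged from 0.0169 to 0.539.

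Of 12 other genes of the destruction complex and its substrate, 2 were lower and none higher, with a list median of -0.04. Ctnnb1, which encodes β-catenin, fell to 747 ± 14.7 CPM in KO, against 821 ± 4.79 CPM in WT, a small change (log2 fold change -0.14, adjusted p = 0.00733, edgeR). With either limma fit on TPM the log2 fold change of Ctnnb1 was -0.07 and the call was lost (adjusted p = 0.153 in both, range 0.000165 to 0.153 over 17 alternatives). Btrc, which marks phosphorylated β-catenin for degradation, was at 65.5 ± 0.461 CPM in KO cells and 71.1 ± 2.29 CPM in WT cells (log2 fold change -0.12, adjusted p = 0.0429, edgeR). The call on Btrc was lost in 11 of 17 alternatives, over which the adjusted p ranged from 0.0331 to 0.294. Among these was each fit that left out 1 library except that without WT replicate C, namely without KO replicate A (adjusted p = 0.0857), KO replicate B (0.0813), KO replicate C (0.0609), WT replicate A (0.132) or WT replicate B (0.149). Of 13 TCF/LEF factors and cofactors, 2 were higher and none lower, with a median of 0.05. Tle2, a Groucho corepressor, rose to 7.29 ± 1.02 CPM in KO, against 3.94 ± 0.422 CPM in WT (log2 fold change 0.88, adjusted p = 0.000250, edgeR), and Tcf7l1, mostly a repressor of Wnt targets, rose to 34.4 ± 1.48 CPM in KO, against 28.9 ± 0.426 CPM in WT (log2 fold change 0.25, adjusted p = 0.00244). Both calls were lost with either limma fit on TPM, and over 17 alternatives the adjusted p was 3.38e-08 to 0.0619 for Tle2 and 0.000436 to 0.0535 for Tcf7l1.

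Genes known in other tissues as canonical targets did not move one way with Axin2. Of 16 others tested, 4 were higher (Ccnd1, Ephb3, Myc and Cd44) and 2 lower (Tnfrsf19, and Nkd1, which is also among the genes around Dishevelled), and the median was 0.09. Ccnd1, a cyclin of early cell cycle, rose with 96.6, 113 and 112 CPM in KO, against 75.9, 76.5 and 71.4 CPM in WT (log2 fold change 0.52, adjusted p = 5.99e-05, edgeR). Ephb3, an ephrin receptor, rose to 78.9 ± 0.482 CPM in KO, against 67.4 ± 0.618 CPM in WT (log2 fold change 0.23, adjusted p = 0.000340, edgeR). Myc rose to 114 ± 7.97 CPM in KO, against 99.5 ± 1.01 CPM in WT (log2 fold change 0.20, adjusted p = 0.00462, edgeR), a call lost with limma on log2(TPM + 1) (adjusted p = 0.0751) and on log2(TPM + 0.1) (0.0778), within a range of 5.05e-05 to 0.0778 over 17 alternatives. These genes respond to many signals besides Wnt.

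Of 11 planar polarity genes tested, 5 were higher and none lower, beside 12.5% higher and 11.1% lower among all genes tested, and the list median was 0.12. The list was not tested as a set. Celsr2, an adhesion protein of the polarity core, rose with 48.9, 53.2 and 55.1 CPM in KO, against 31.0, 33.4 and 35.7 CPM in WT (log2 fold change 0.65, adjusted p = 2.26e-06, edgeR). Prickle1 rose to 13.4 ± 0.710 CPM in KO, against 8.73 ± 0.529 CPM in WT (log2 fold change 0.62, adjusted p = 0.000153, edgeR). Prickle2 rose to 10.1 ± 1.59 CPM in KO, against 5.83 ± 0.695 CPM in WT (log2 fold change 0.79, adjusted p = 0.000390, edgeR). Prickle proteins act inside the cell opposite to Dishevelled in setting polarity. The further 2 called genes were Prickle3 and Scrib. The sums of medullary, tuft and fibroblast markers were also higher in KO, as given above, and their part in this list was not tested.

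The genes most like Dact2 over the 6 libraries were found by the root mean square difference of log2 CPM after centring each gene on its mean, among the 11294 tested genes whose mean reached 5 CPM. The nearest were Pds5b (0.02), Nqo1 (0.05), Pithd1 (0.06), Aldh1l1 (0.06) and Ada (0.07), against a median of 0.41 over all ranked genes. Pds5b, a regulator of cohesin, had 144 CPM in KO cells and 253 CPM in WT cells. Nqo1, a quinone reductase, had 78.0 CPM in KO cells and 133 CPM in WT cells. Pithd1 had 65.5 CPM in KO cells and 111 CPM in WT cells. Aldh1l1, an enzyme of folate metabolism, had 77.9 CPM in KO cells and 130 CPM in WT cells, and Ada, adenosine deaminase, had 23.3 CPM in KO cells and 38.8 CPM in WT cells. Because Dact2 itself differs by genotype, genes chosen for likeness to it differ in the same way by construction, and these values are a description only. None of the 5 is on the Wnt lists used. Of the other genes described, Axin2 came closest, at 0.25 (place 262), followed by Wnt4 and Sfrp1 (both 0.30), Kremen1 (0.37), Lgr4 (0.43), Dact1 (0.52), Dkk3 (0.59) and Wnt5a (0.75), while Wnt5b was under the minimum level.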

How the data were processed

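RNA of 6 cTEC libraries was analysed, 3 per genotype, grouped by the labels. The 10 genes and the lists of Wnt genes and markers were chosen with earlier results of these data known. Per the submitters' processing notes, the tools were bcl2fastq 2.17, STAR 2.5.1b (alignment) and RSEM 1.2.28 (quantification). The notes name the build GRCh38, a human build, whereas the identifiers are mouse Ensembl identifiers, so the build used is uncertain. Symbols and positions come from GENCODE M21 (GRCm38), which matched 50376 of 50600 identifiers. The parameters are not given in the sources used here.

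The deposited read counts are whole reads per gene for each strand setting, and the column of the opposite strand was used, since the library kit keeps strand and 95.5% to 95.7% of gene counts lay there. Between 18.4% and 19.8% of reads were in rows that name no gene and were left out. The authors also deposited RSEM expected counts, which are estimated and were rounded, and RSEM TPM, which was used to compare levels between genes. The deposited RSEM tables are per gene, so planned shares of single transcripts were not made.

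Genes passing filterByExpr were fitted with edgeR 4.0.16 (quasi-likelihood test with robust estimation, TMM normalization, R 4.3.3), with Benjamini-Hochberg adjustment over 16938 genes and a threshold of 0.05. The common biological coefficient of variation was 0.0538 and TMM factors were 0.9937 to 1.0118. Within genotypes the spread was 8.67 times (KO) and 5.51 times (WT) the counting variance. SEs were derived from the F statistic and are approximate. CPM values are counts over the effective library size. No p-value is given for the 10 genes. Other named genes were Psmb11, up to 3 called genes per list by increasing adjusted p, or, in lists with none, up to 2 genes with the highest CPM, and the 5 genes most like Dact2 with an established symbol. Further called genes of a list are named without values to account for the list's count. The labels do not say whether the letters of the replicates pair the libraries, and the main fit treated them as unpaired. Deviations from the genotype mean correlated at -0.02, 0.08 and -0.03 between same-letter libraries and at -0.07 to 0.08 between the others. These values cannot decide whether the libraries were paired. Promoter sequences are from RefSeq (GRCm38.p6). Python 3.11.15 with matplotlib 3.10.9 drew the figures.

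Settings tried beside the main ones were a minimum mean of 5 CPM or no filter on low counts, upper quartile or RLE normalization, unstranded counts, RSEM expected counts, DESeq2 1.42.0, limma 3.58.1 on log2(TPM + 1) and on log2(TPM + 0.1), a replicate block, and leaving out each library. A fit with no robust estimation was added after the data were seen.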

Additional observations from a re-analysis of the deposited data

How the results depend on the processing

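The 10 genes were chosen with this contrast in view. Their calls below therefore only describe refits of the same libraries and are no support for a difference. Each of the 10 genes kept its sign in every alternative in which it was fitted. Dact2 (log2 fold change -0.86 to -0.79), Wnt4 (-0.25 to -0.19), Wnt5a (0.51 to 0.72) and Dkk3 (0.24 to 0.38) were called in all 17. Axin2 was called in 15 (-0.47 to -0.28), not with limma on TPM, Wnt5b in 12 and Sfrp1 in 9. With a mean of at least 5 CPM, Wnt5b was not fitted. Dact1 (0.12 to 0.36), Kremen1 (-0.10 to -0.05) and Lgr4 (0.01 to 0.06) were called in none. Against 3989 genes called, limma on log2(TPM + 1) called 1927 (1169 higher, 758 lower in KO) and limma on log2(TPM + 0.1) called 1857 (1119 higher, 738 lower). Against 26 other Wnt genes called, each limma fit called 9 (8 higher, 1 lower), and with a mean of at least 5 CPM 5 lower genes were called. Which genes the fits share was not counted. Of the 10 genes, 4 were called with limma on log2(TPM + 0.1), and 2 lower genes were called with either limma fit. The cause was not tested. Without 1 library each, 2715 to 3661 genes were called, 1476 to 1917 higher and 1239 (without WT replicate C) to 1744 lower, 18 to 25 other Wnt genes (13 to 17 higher, 4 to 8 lower) and 5 to 6 of the 10 (2 to 3 higher, 3 to 4 lower). With the replicate block, 4097 genes were called (2191 higher, 1906 lower), 27 other Wnt genes and 6 of the 10, Sfrp1 being the gene lost. With no robust estimation, 3899 genes were called. Wnt5b, Wnt11 and Dkk2 rest on few counts, which limits their precision.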
